A study of Arabidopsis thaliana with 12 samples.

Results

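Of the 33602 genes counted in Arabidopsis thaliana seedlings, 51 met a rule for stronger lowering by abscisic acid (ABA) in the cdk8 mutant. Wild type was the comparison, and for 3 of the 51 the fitted log2 changes, given below, differed in the other direction. The genes were selected on the measured values themselves. Counts were scaled to CPM, the usual depth-scaled unit, by library total, and the log2 of each group's mean CPM plus 1 was taken. A gene was kept where ABA against mock in cdk8 was at most -1.5, where that response lay at least 1 below the wild-type response, and where the wild-type response was under 1.5. All 4 group means entered this choice, so the responses of the 51 genes are descriptions and carry no test. All 51 also passed the filter on low counts that left 21151 genes for testing, and 43 reached 5 CPM in at least 1 group.

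Whole seedlings, 1 week old, were wild type or cdk8, and each genotype received mock treatment or 50 µM ABA for 3 h, with 3 RNA-seq libraries per group. The cdk8 allele is not given in the sources used here, and nothing in the labels says that libraries of a group came from separate cultures, so all spreads may be technical. File headers name the mock libraries 0h, so an effect of 3 h of handling cannot be told apart from that of ABA. Between 17675785 and 27415053 fragments were assigned per library, the 3 cdk8 ABA libraries being the deepest at 24292745 or more, and 3 counts corresponded to 0.109 to 0.17 CPM. CDK8 itself (AT5G63610, listed as CDKE;1) stood at 22.2, 19.6 and 20.5 CPM in wild-type mock, 27.4, 28.1 and 26.1 in wild-type ABA, 5.24, 9.22 and 6.21 in cdk8 mock and 10.8, 5.39 and 9.59 in cdk8 ABA, so every cdk8 library lay below every wild-type library. A pair of ABA libraries, wild-type replicate 3 and cdk8 replicate 2, were set aside together as an alternative chosen after seeing the data. On PC4, a component with 3.1% of the variance, wild-type ABA replicates 1 to 3 scored 29.4, 20.4 and -26.7, and those of cdk8 scored -1.6, -33.7 and 8.5. Below they are called the libraries that stand apart. The header number of cdk8 ABA replicate 3 lies outside the consecutive run of the other 11, with no reason given in the sources used here, and without it 56 genes met the rule, 46 of the 51 among them.

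ABA is the hormone of water deficit and seed dormancy. It acts through receptors that hold back phosphatases and so release kinases that phosphorylate transcription factors, and besides inducing protective genes it lowers the transcripts of many growth, nutrient uptake and immune genes. CDK8 is the kinase of the Mediator complex's kinase module, which links transcription factors to RNA polymerase II and can both raise and lower transcription.

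The name given to the set, stronger repression by ABA in cdk8, held in part. The wild-type response was below 0 in 47 of the 51 genes and at or above 0 in 4, namely TPS04 (0.73), TAT3 (0.57), AT5G42530 (0.26) and AGO9 (0.12). It was at most -1 in 26 genes. The wild-type responses ran from -3.11 to 0.73 with a median of -1.05, beside a median of -0.07 over all genes tested. The cdk8 responses ran from -4.70 to -1.5 with a median of -2.43, beside 0.03 over all genes tested. The plot of both responses shows the 51 genes below the diagonal, as the choice requires.

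**Figure D1:**
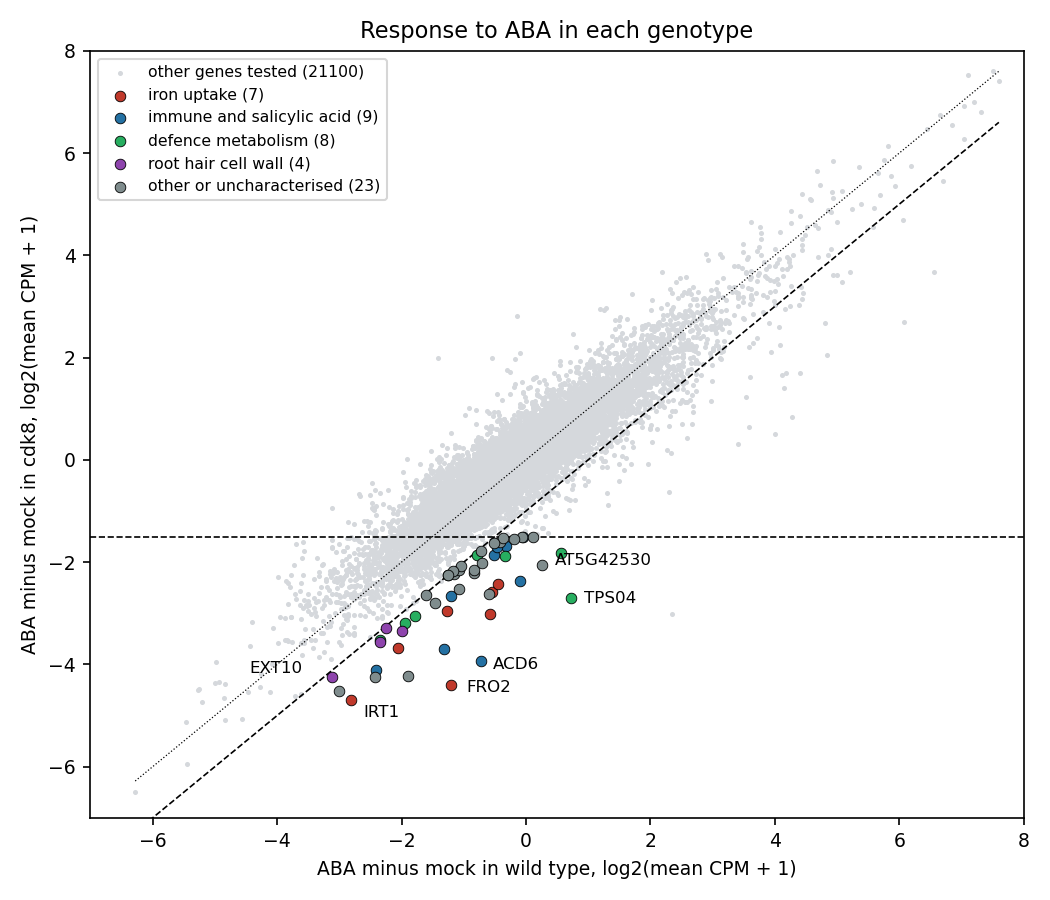
Response to ABA (ABA minus mock, log2 of group mean CPM plus 1) in wild type on the x axis and in cdk8 on the y axis. Each point is a gene, light grey for the other genes tested and coloured by role for the 51 chosen; dashed lines are the limits on the cdk8 response (-1.5) and on the difference of responses (-1), and the dotted line marks equal responses. Among the 51 chosen, FRO2 (-1.20 and -4.41), ACD6 (-0.73 and -3.93) and TPS04 (0.73 and -2.71) lie farthest below the dashed diagonal.

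The difference of responses is the difference between the genotypes after ABA minus that after mock, and the 51 genes split by which of these was the larger. In 31 genes cdk8 exceeded wild type by at least 1 after mock, on the log2 scale. In 11 genes cdk8 lay at least 1 below wild type after ABA, and ACD6 and TPS04 met both conditions. The remaining 11 met neither. The median difference between the genotypes was 1.18 after mock and -0.30 after ABA, beside 0.00 and 0.09 over all genes tested. In 19 of the 51 the mean after ABA was still higher in cdk8 than in wild type. In the 31 genes above, the fall in cdk8 started from a higher mock mean than in wild type. The rule itself favours a high cdk8 mock mean, also one raised by spread between libraries, so nothing is read from that count.

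**Figure D2:**
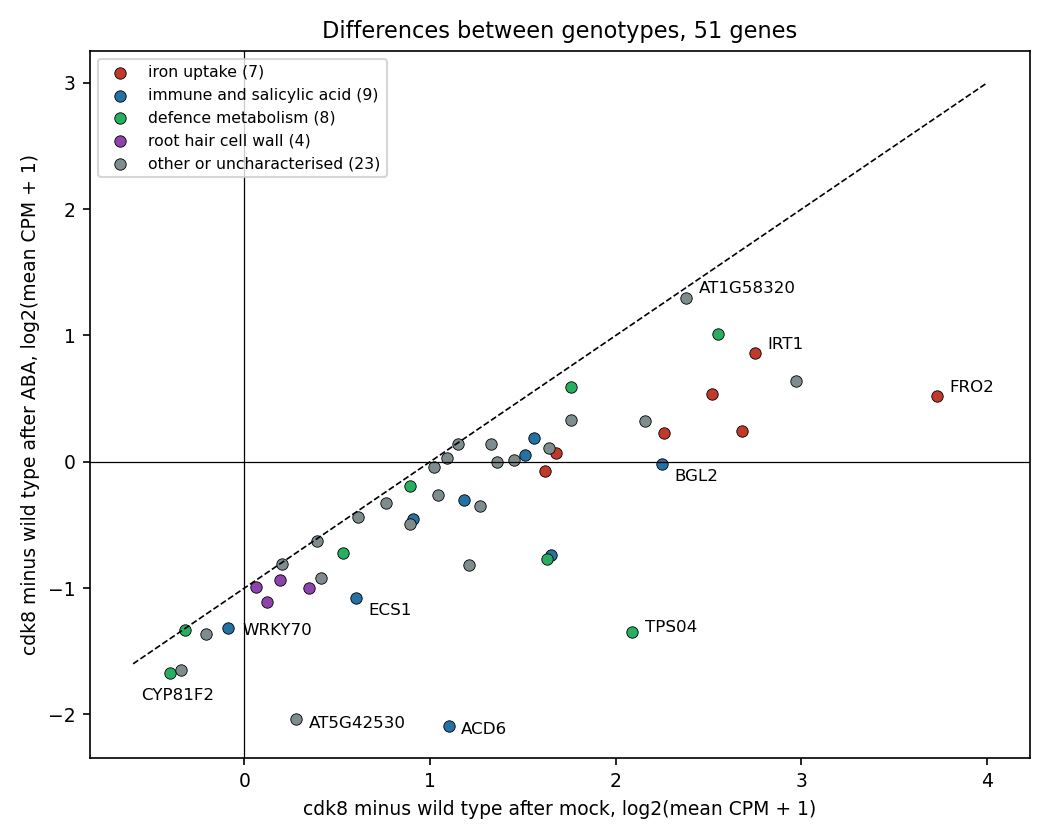
Difference between cdk8 and wild type (log2 of group mean CPM plus 1) after mock on the x axis and after ABA on the y axis for the 51 genes, coloured by role. The dashed line is the limit on the difference of responses (-1); iron uptake genes lie to the right at 1.62 to 3.73 after mock, and the root hair wall genes lie near 0 after mock and between -1.11 and -0.94 after ABA.

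The same groups were also compared with edgeR's quasi-likelihood test over all genes tested, at a Benjamini-Hochberg adjusted p under 0.05. Since the choice used these contrasts, nothing is read from the counts of the 51 called. ABA against mock called 51 of the 51 lower in cdk8 and none higher, where 30.4% of all genes tested were called lower and 30.6% higher. In wild type it called 34 lower and 0 higher, where 32.8% of all genes were called lower and 31.9% higher. After mock, 25 were called higher in cdk8 and 0 lower, with 5.15% and 8.0% of all genes. After ABA, 18 were called lower in cdk8 and 6 higher, with 13% and 10.6% of all genes. The difference of responses was called below 0 for 17 and above 0 for 0, with 2.85% and 2.37% of all genes. All 3 cdk8 mock libraries lay above all 3 wild-type mock libraries in 28 of the 51 genes, as in 18.9% of all genes tested. All 3 cdk8 ABA libraries lay below all 3 wild-type ABA libraries in 19, as in 12.6% of all genes tested.

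Genes of iron uptake had the highest median difference between the genotypes after mock among the roles. Arabidopsis roots reduce ferric iron with the reductase FRO2 and import it with the transporter IRT1. Both are transcribed under FIT (FRU in the annotation) together with 4 small bHLH factors, bHLH38, bHLH39, BHLH100 and BHLH101, whose genes are switched on by iron deficiency, and CYP82C4 hydroxylates coumarins that mobilise iron. All 7 were chosen. After mock their difference between the genotypes ranged from 1.62 to 3.73 with a median of 2.52. After ABA it ranged from -0.07 to 0.86 with a median of 0.24, so none lay 1 or more lower in cdk8 after ABA.

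FRO2 (AT1G01580, chromosome 1, 209395 to 213041, plus strand) stood at 2.82, 2.74 and 2.08 CPM in wild-type mock and 46.1, 33.6 and 58.7 in cdk8 mock. After ABA it was at 0.217, 0.962 and 0.466 CPM in wild type and 1.42, 1.19 and 1.03 in cdk8. The cdk8 mean was thus 18.1 times that of wild type after mock, and in each treatment no cdk8 library overlapped a wild-type library. IRT1 (AT4G19690, chromosome 4, 10707426 to 10709015, plus strand) stood at 7.35, 10.7 and 2.13 CPM in wild-type mock and 54.1, 37.2 and 61.1 in cdk8 mock. After ABA it had 1, 3 and 1 fragments in the wild-type libraries and 31, 27 and 20 in those of cdk8. Its wild-type level after ABA was therefore at or under the floor of 3 counts, and its cdk8 level was not.

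That floor matters for reading the set. The added 1 CPM limits how far a gene that is low under mock can fall, so a gene with little RNA in wild-type mock shows a small wild-type response whatever its fold change. In 7 of the 51 every wild-type ABA library had at most 3 fragments, namely IRT1, bHLH39, BHLH100, CYP82C4, AT1G13609, AT1G63560 and AT3G12900. For these 7 the selection does not show a larger fold change in cdk8, and the fitted difference of responses was above 0 for IRT1 (0.38), BHLH100 (0.87) and AT1G13609 (0.46). It was below 0 for the other 44 genes, a sign that the choice largely fixes, so nothing is read from it. Among those 44 the rule and the fit also differed in size, in both directions. The difference was -1.08 by the rule and -0.48 fitted for AT1G58320, -1.17 and -0.75 for PEN3, and -3.19 and -3.96 for ACD6. The selection alone therefore does not give the size of a fold change for any of the 51. AT3G12900 had no fragment in any ABA library of either genotype.

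The 4 bHLH factors were near 1 CPM or lower in wild-type mock, apart from BHLH101, and between 4.22 and 11 CPM in every cdk8 mock library. bHLH38 stood at 0.779, 0.378 and 0.693 CPM in wild-type mock and at 9.41, 5.54 and 9.83 in cdk8 mock. Under ABA its level was 0.108, 0.339 and 0.103 CPM in wild type and at 1.24, 0.298 and 0.617 in cdk8, where the groups overlapped. BHLH100 stood at 0.244, 0.378 and 0.853 CPM in wild-type mock and 11, 6.25 and 8.43 in cdk8 mock, and after ABA it had no fragment in 5 of the 6 libraries. BHLH101 stood at 2.05, 1.23 and 2.93 CPM in wild-type mock and at 10.2, 7.24 and 7.9 in cdk8 mock. CYP82C4 stood at 3.12, 6.14 and 0.96 CPM in wild-type mock and 11.7, 7.35 and 20.4 in cdk8 mock, with at most 5 fragments in any library after ABA.

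bHLH38 and bHLH39 are neighbours on chromosome 3 with 1395 bases and no other gene between them, and their reads may be shared in part, since they are close copies. The 250 bases before each start (RefSeq, TAIR10.1) are shown because these neighbours shared a pattern, with cdk8 above wild type in all 3 mock libraries of both. Capitals mark ACGTG, the core that ABA-response factors bind, on either strand; where both strands match, they overlap as CACGTG, the G-box.
bHLH38 (chr3:21085246-21085495, minus strand): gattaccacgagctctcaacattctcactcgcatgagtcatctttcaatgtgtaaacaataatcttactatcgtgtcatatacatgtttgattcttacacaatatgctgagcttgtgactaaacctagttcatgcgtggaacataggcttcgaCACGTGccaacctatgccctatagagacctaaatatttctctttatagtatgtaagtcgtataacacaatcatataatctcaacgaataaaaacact
bHLH39 (chr3:21087711-21087960, minus strand): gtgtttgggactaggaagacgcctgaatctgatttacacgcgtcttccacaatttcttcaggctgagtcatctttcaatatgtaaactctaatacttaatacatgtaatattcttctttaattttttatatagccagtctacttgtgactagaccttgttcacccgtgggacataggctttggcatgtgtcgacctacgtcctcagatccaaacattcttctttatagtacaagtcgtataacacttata
The bHLH38 stretch held ACGTG on both strands, as 1 G-box 97 bases before the start, and that of bHLH39 held none. The longest run common to both was 16 bases, tgagtcatctttcaat, and starts in this annotation can differ from those in the count table.

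The other iron genes followed the same direction only in part. Of a list of 22 iron uptake and coumarin genes, 18 were matched by symbol and 17 tested, of which 10 were not chosen. The symbols S8H, IMA1, IMA2 and IMA3 were not in the reference annotation, so genes known by them may be present under a locus ID, among the 51 or outside, and the counts for this list leave them out. Among the 10, edgeR's test after mock called 4 higher in cdk8 and 0 lower (5.15% and 8.0% of all genes tested), with a median log2 difference of 0.18 beside 0.00 over all genes tested. They were FRO3, a mitochondrial ferric reductase (0.80, SE 0.15, adjusted p = 0.00413), BTS, a ubiquitin ligase that restrains the deficiency response (0.80, adjusted p = 0.0101), OPT3, which loads iron into the phloem (0.55, adjusted p = 0.0109), and NAS4, a nicotianamine synthase (0.69, adjusted p = 0.0194). Without cdk8 mock replicate 1 the count was 2.

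FIT itself was not called after mock, at 8.81 ± 2.87 CPM in wild type and 8.65 ± 1.95 in cdk8 (SD, n = 3; adjusted p = 0.954 in edgeR's test). Neither was IRT2, the close relative of IRT1, at 7.27 ± 1.23 and 5.74 ± 1.55 CPM (SD, n = 3; adjusted p = 0.392, edgeR). Both fell after ABA in both genotypes, with log2 responses of -1.74 and -1.5 for FIT and -3.19 and -4.73 for IRT2 in wild type and cdk8. After ABA IRT2 was lower in cdk8 by edgeR's test (-1.88, SE 0.45, adjusted p = 0.00915), the only one of the 10 called between the genotypes after ABA. None of the 10 was called for the difference of responses with all libraries, and 4 were called below 0 without both ABA libraries that stand apart. Of the 7 chosen iron genes, edgeR's test with all libraries called 1 below 0, FRO2, and 6 were not called. Among all genes tested 2.85% were called below 0, and the choice of the 7 used this contrast.

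**Figure D3:**
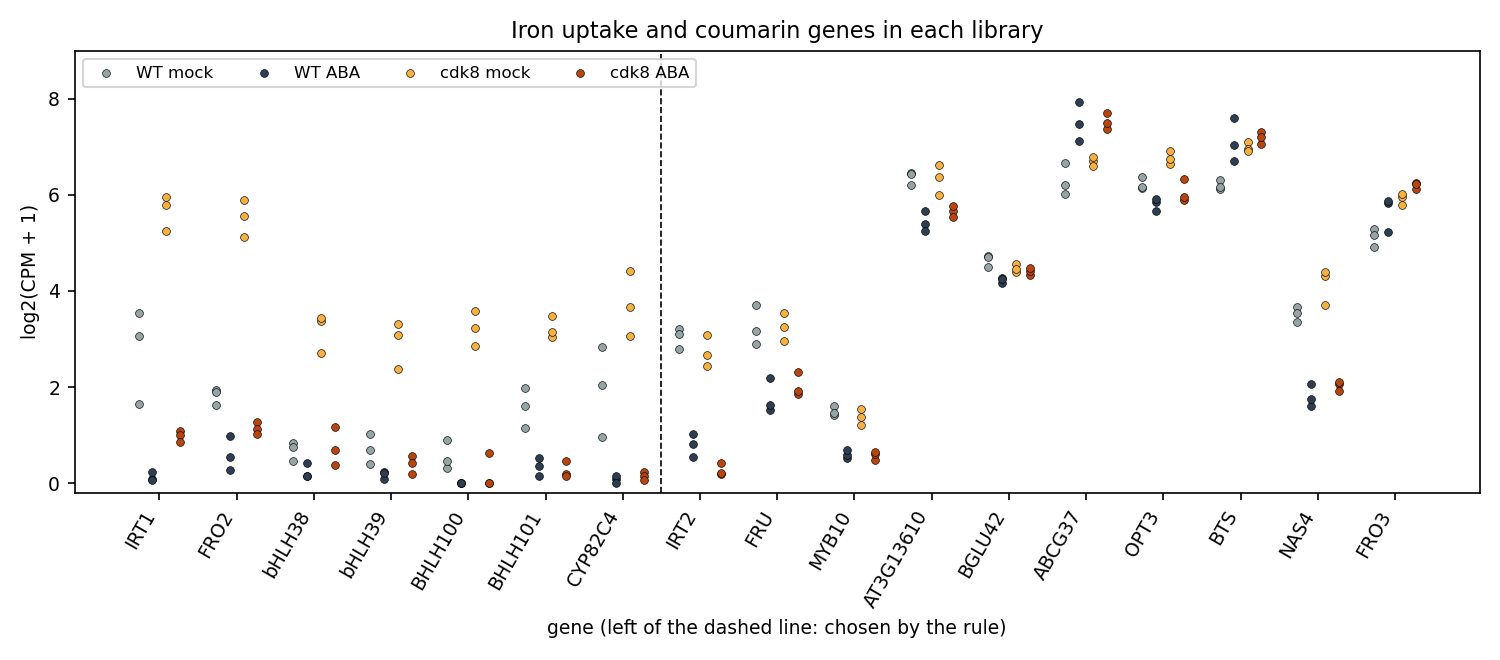
Level of each iron uptake and coumarin gene tested (log2 of CPM plus 1) in each of the 12 libraries, with 3 points per group. Left of the dashed line are the 7 chosen genes, whose cdk8 mock points lie above all wild-type mock points; FRU and IRT2, right of the line, show overlapping mock groups.

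Genes grouped as immune, including those of the salicylic acid branch, made up 9 of the 51. This branch rests on the hormone salicylic acid, which accumulates after attack by biotrophic pathogens and induces the PR genes, and ABA is known to oppose it. Their levels varied by library. The library with the highest level in its group was the same for all 9 genes in wild-type ABA (replicate 3) and in cdk8 mock (replicate 3). It was replicate 1 for 8 of 9 in wild-type mock and replicate 2 for 7 of 9 in cdk8 ABA. Deviations from the group means correlated between genes with a median r of 0.79 over 36 gene pairs (range 0.37 to 0.94, across 12 libraries, a description of libraries that the genes share).

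ACD6 (AT4G14400, chromosome 4, 8294446 to 8298602, plus strand), an ankyrin membrane protein that promotes salicylic acid defence, had the lowest difference of responses of the 9. It stood at 24.5, 12 and 10.8 CPM in wild-type mock and 24.4, 28.4 and 52.1 in cdk8 mock. Its ABA level was 6.78, 7.41 and 13.1 CPM in wild type and 1.57, 1.71 and 0.823 in cdk8. The mock groups overlapped and the ABA groups did not, the cdk8 mean being 6.66 times lower. Its difference of responses was -3.19 with all libraries and -2.98 without both libraries that stand apart.

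ECS1, a cell wall protein, was the most abundant of the 9. It stood at 278, 172 and 204 CPM in wild-type mock and 320, 295 and 378 in cdk8 mock, then at 26, 32.4 and 61.8 in wild-type ABA and 17.7, 18.2 and 19.4 in cdk8 ABA. Neither treatment showed overlap between the genotypes. WRKY70, a transcription factor of salicylic acid signalling, stood at 33.8, 19.4 and 22.8 CPM in wild-type mock and 20.9, 15.9 and 34.1 in cdk8 mock, which overlapped. With ABA it was at 15.1, 16.9 and 22 CPM in wild type and 6.09, 7.03 and 6.67 in cdk8, which did not.

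BGL2, the glucanase PR2 that marks salicylic acid action, and LURP1, needed for basal defence, depended on single libraries. BGL2 stood at 1.84, 3.28 and 18.2 CPM in wild-type ABA against 1.35, 16.7 and 4.9 in cdk8 ABA. Wild-type ABA replicate 3 held 78.0% of the summed wild-type ABA level, and without both libraries that stand apart the difference of responses moved from -2.27 to -2.04. LURP1 stood at 0.108, 0.17 and 6.11 CPM in wild-type ABA, and its difference moved from -2.39 to -1.28. Both left the set when only wild-type ABA replicate 3 was omitted, and both remained when both libraries were.

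The other 4 immune genes are named here after their values were seen. AIG1 and AT1G33950, avirulence-induced GTPase family genes that are neighbours on chromosome 1, ANK, an ankyrin protein, and PCC1, a pathogen and circadian controlled gene, reached 19.8, 3.85, 8.67 and 4.14 CPM in cdk8 mock replicate 3, the highest library for each. AIG1 stood at 0.325, 0.283 and 6.99 CPM in wild-type ABA against at 1.24, 6.81 and 1.07 in cdk8 ABA, so the 2 libraries that stand apart were the high ones. Without both, AIG1 and PCC1 were no longer chosen.

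PR1, a marker of salicylic acid action, was excluded by the limit on the wild-type response. Its wild-type response was 2.34 and its cdk8 response -3.01, and it met the rule once both libraries that stand apart were left out. Of 18 salicylic acid and immune genes tested, 16 were not chosen. Among them ABA called 10 lower and 2 higher in cdk8 (30.4% and 30.6% of all genes tested), and 7 lower and 0 higher in wild type (32.8% and 31.9%). Their median log2 response was -1.25 in cdk8 and -0.42 in wild type. The median of their differences of responses was only -0.07, beside 0.01 over all genes tested. For that difference, 1 of the 16 was called below 0 and 0 above (2.85% and 2.37% of all genes tested). The 10 lower in cdk8 became 6 without cdk8 mock replicate 3 and 13 without both libraries that stand apart. After mock, 0 were called higher in cdk8 and 1 lower with all libraries, and 4 higher and 1 lower without both. PAD4 and EDS1, which act upstream of salicylic acid synthesis, fell in both genotypes, with log2 responses of -1.26 and -1.6 for PAD4 and -0.75 and -1.1 for EDS1 in wild type and cdk8. Neither was called for the difference of responses by edgeR's test (adjusted p = 0.416 and 0.254).

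**Figure D4:**
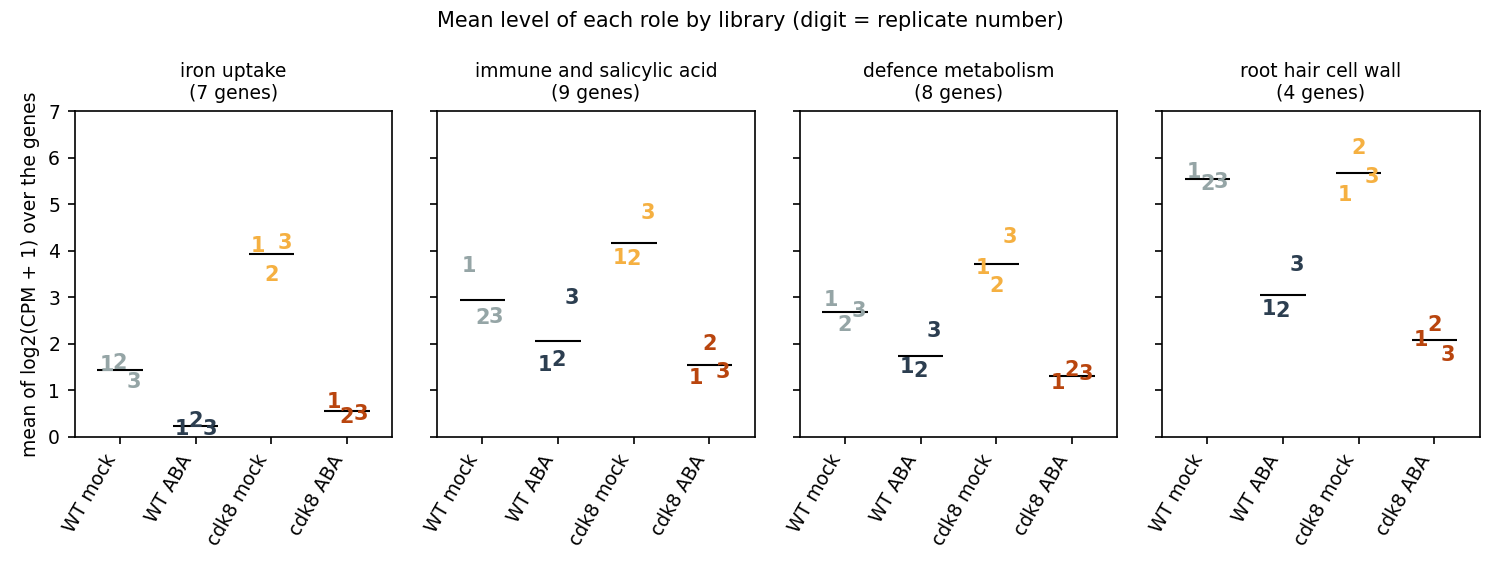
Mean of log2(CPM plus 1) over the chosen genes of 4 roles in each library; digits are replicate numbers and bars are group means. Wild-type ABA replicate 3 is the highest of its group for immune, defence metabolism and root hair wall genes, at 2.99 for the immune genes against 1.54 and 1.66, and cdk8 mock replicate 3 is the highest for the immune genes at 4.82.

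Enzymes of defence metabolism made up 8 of the 51 and were mixed. CYP81F2 and IGMT2 modify indole glucosinolates, CYP71A13 makes the precursor of the phytoalexin camalexin, TPS04 makes the volatile terpene precursor geranyllinalool, and TAT3 is a jasmonate-inducible tyrosine aminotransferase. CHAT acetylates a green leaf volatile, PEN3 is here a pentacyclic triterpene synthase (AT5G36150) and AT1G26390 is annotated as a berberine-type oxidase. IGMT2 and CHAT are named after their values were seen.

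CYP81F2 (chromosome 5, 23187840 to 23189857, plus strand) stood at 28, 43.4 and 18.5 CPM in wild-type mock and 17.4, 14.6 and 35.4 in cdk8 mock, which overlapped. After treatment it was at 11.1, 7.02 and 5.8 CPM in wild type and 1.46, 2.86 and 1.11 in cdk8, with no overlap and a mean 4.39 times lower in cdk8. CYP71A13 was at 7.26, 1.79 and 9.49 CPM in wild-type mock and 5.5, 4.22 and 4.48 in cdk8 mock, and at 1.03, 1.64 and 3.36 in wild-type ABA against 0.109, 0.186 and 0.288 in cdk8 ABA. With all libraries, the genotypes were separate after ABA for both genes and overlapped after mock. CYP71A13 was not chosen without both libraries that stand apart, where its difference of responses moved from -1.01 to -0.64, and it stayed in 8 of 12 runs that left out 1 library. IGMT2 was likewise lower in all 3 cdk8 ABA libraries, at 1.13, 1.12 and 0.988 CPM against 2.71, 1.81 and 2.74 in wild type.

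AT1G26390 and PEN3 showed the other pattern. AT1G26390 stood at 10.1, 9.3 and 11.8 CPM in wild-type mock and 60.9, 43.9 and 92.5 in cdk8 mock. After ABA it was at 6.34, 2.49 and 15.3 CPM in wild type and 12.3, 18.5 and 20.8 in cdk8, which overlapped. PEN3 stood at 7.5, 5 and 8.75 CPM in wild-type mock and 22, 31.4 and 25.9 in cdk8 mock, then at 0.217, 1.02 and 0.517 in wild-type ABA and 1.35, 1.45 and 1.36 in cdk8 ABA. Both genes were higher in cdk8 in either state by their means, and AT1G26390 was not chosen without both libraries that stand apart.

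TPS04 and TAT3 had wild-type responses above 0 that came from 1 library. TPS04 stood at 0.217, 0.339 and 4.45 CPM in wild-type ABA against at 4.87, 0.494 and 12.2 in cdk8 mock, with 4 fragments in all 3 cdk8 ABA libraries together. TAT3 stood at 2.71, 2.55 and 14.5 CPM in wild-type ABA against at 8.52, 4.33 and 31.5 in cdk8 mock. Wild-type ABA replicate 3 was the high library in both, and without both libraries that stand apart the wild-type responses became -0.33 and -0.5, so the means were then lower after ABA in each genotype.

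Some jasmonate genes outside the set were lower in cdk8. Of 18 tested and not chosen, edgeR's test called 6 lower and 0 higher in cdk8 after mock (8.0% and 5.15% of all genes tested), and 10 lower and 1 higher after ABA (13% and 10.6%). Their median log2 difference was -0.39 after mock and -0.7 after ABA. The 18 included TPS10, which was matched by symbol to AT1G60140 and may not be the jasmonate gene meant. LOX2, a chloroplast lipoxygenase of jasmonate synthesis, stood at 286 CPM in wild-type ABA against 129 in cdk8 ABA, and its responses differed (-1.19, SE 0.20, adjusted p = 0.00599, edgeR). VSP2, a storage protein induced by jasmonate, was lower in cdk8 by -1.78 after mock and -1.51 after ABA (edgeR adjusted p = 0.00105 and 0.00144), and its difference of responses was not called (0.27, adjusted p = 0.735). TPS04 and TAT3, on the same list, had higher cdk8 means after mock.

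Cell wall genes of root hairs differed between the genotypes mainly after ABA. Extensins are glycoproteins cross-linked in the wall, and EXT6, EXT10, EXT11 and the proline-rich protein PRP3 are expressed in growing root hairs. Extensins share repeats, so reads may be divided between near-identical copies and their counts are uncertain. After mock the 4 differed between the genotypes by 0.06 to 0.35, and after ABA by -1.11 to -0.94. In seedlings, fewer root hair cells and less RNA per cell cannot be told apart.

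EXT10 (AT5G06640, chromosome 5, 2039859 to 2041928, minus strand) stood at 68.2, 57.1 and 62.7 CPM in wild-type mock and 42.1, 107 and 66.2 in cdk8 mock. After ABA it was at 4.61, 5.15 and 9.42 CPM in wild type and 3.39, 3.12 and 2.06 in cdk8. The mock groups overlapped, and all cdk8 ABA libraries lay below those of wild type. PRP3 (AT3G62680) stood at 101, 72.4 and 100 CPM in wild-type mock and 82.2, 114 and 88.6 in cdk8 mock, then at 15.6, 13.5 and 26.1 in wild-type ABA and 8.1, 12.5 and 5.68 in cdk8 ABA. EXT6 was at 5.04, 5.09 and 11.8 CPM in wild-type ABA against 2.7, 3.57 and 2.31 in cdk8 ABA, and EXT11 at 2.49, 2.32 and 6.83 against 1.24, 2.12 and 0.947.

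All 4 were highest in wild-type ABA replicate 3, and none stayed in the set without it. Without both libraries that stand apart EXT11 and PRP3 stayed, at -1.05 and -1.04, and EXT6 and EXT10 did not, at -0.92 and -0.85. Root organ markers moved with the same libraries. The mean log2(CPM plus 1) of 16 root markers, PRP3 among them, was 3.09 and 3.1 in wild-type ABA replicates 1 and 2 and 3.27 in replicate 3, and 3.1, 3.46 and 2.9 in the cdk8 ABA libraries. The part of root content in these results was not tested.

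The stretches before EXT6 and EXT10 are shown because both genes had lower means after ABA in each genotype and both hold the ABA-response core. Capitals mark ACGTG and the W-box core TTGAC, which WRKY factors bind, on either strand.
EXT6 (chr2:10622146-10622395, plus strand): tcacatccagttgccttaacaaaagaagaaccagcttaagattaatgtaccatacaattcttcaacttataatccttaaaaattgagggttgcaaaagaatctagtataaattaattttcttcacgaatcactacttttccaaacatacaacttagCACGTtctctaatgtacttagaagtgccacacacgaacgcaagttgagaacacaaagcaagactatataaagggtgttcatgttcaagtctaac
EXT10 (chr5:2041929-2042178, minus strand): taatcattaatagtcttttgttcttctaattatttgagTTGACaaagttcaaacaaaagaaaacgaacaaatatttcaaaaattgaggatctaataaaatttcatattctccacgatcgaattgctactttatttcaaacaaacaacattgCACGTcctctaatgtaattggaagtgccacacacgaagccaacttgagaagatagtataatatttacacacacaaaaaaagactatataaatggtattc
ACGTG lay on the opposite strand in both, 94 and 99 bases before the start, and TTGAC lay 212 bases before the start of EXT10. The longest run common to both stretches was 17 bases, gaagtgccacacacgaa.

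Root hair genes outside the set were also lower in cdk8 after ABA. Of 23 tested and not chosen, edgeR's test called 14 lower in cdk8 after ABA and 0 higher (13% and 10.6% of all genes tested), with a median log2 difference of -0.75 beside 0.00 over all genes tested. The count was 18 without both libraries that stand apart, 8 without cdk8 ABA replicate 1 and 9 without cdk8 ABA replicate 3. After mock it called 3 lower and 0 higher, 8 lower without both of those libraries, and 1 lower without any 1 of 5 mock libraries (wild-type replicates 2 and 3 and the 3 of cdk8). EXT13, another root hair extensin, fell in both genotypes (log2 responses of -4.05 and -6.32), and its responses differed (-2.27, SE 0.59, adjusted p = 0.0398, edgeR). Without both libraries the difference was -1.33 with adjusted p = 0.162. With all libraries, EXT13 alone of the 23 was called for the difference of responses. Of the 4 chosen root hair genes 0 were called, where 2.85% of all genes tested were called below 0. The master regulator RHD6 stood at 6.93 CPM in wild-type ABA against 6.24 in cdk8 ABA and was not called (-0.25, adjusted p = 0.586, edgeR).

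The remaining 23 genes were not placed in a role from their annotation, and 14 of them were at least 1 higher in cdk8 after mock. AT5G35777, annotated as an uncharacterized protein, had even replicates. It stood at 9.64, 10.2 and 10.2 CPM in wild-type mock and 33.6, 33.5 and 32.4 in cdk8 mock, then at 0.434, 0.396 and 0.31 in wild-type ABA and 0.511, 0.298 and 0.659 in cdk8 ABA. AT1G13609, a defensin-like gene, stood at 2.09, 1.89 and 4.59 CPM in wild-type mock and 42.2, 16.8 and 28.7 in cdk8 mock, and was at 1.06 CPM or lower in every ABA library. AT2G30766, annotated as an uncharacterized protein and next to CYP71A13 on chromosome 2, overlaps AT2G30760 on the other strand, so its count is uncertain. It stood at 5.6, 3.26 and 7.09 CPM in wild-type mock and 32.2, 21.7 and 27.8 in cdk8 mock.

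Other genes of this remainder differed after ABA. AT5G42530, also uncharacterized, stood at 79.4, 53.6 and 26.4 CPM in wild-type mock and 62.7, 46.9 and 84.8 in cdk8 mock, which overlapped. After ABA it was at 53.8, 57.8 and 80.1 CPM in wild type and 14.6, 16 and 14 in cdk8, so that its level was lowered in cdk8 alone by the means. AT2G41090, a calcium-binding EF-hand protein, was at 43.1, 50.4 and 61 CPM in wild-type ABA against 15.1, 17.8 and 14.3 in cdk8 ABA. AT3G59940, a kelch-repeat protein, was at 188, 232 and 189 CPM against 86.6, 66 and 82.5, with an antisense neighbour that overlaps its exons, so its count is uncertain without strand.

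AT2G25510, uncharacterized, stood at 51.2, 23.9 and 25.8 CPM in wild-type mock and 72, 60.3 and 106 in cdk8 mock, and at 10.9, 18.9 and 36 in wild-type ABA against 8.97, 15.4 and 11.6 in cdk8 ABA, so the mock groups were separate and the ABA groups overlapped. AT1G62510, of the lipid transfer protein family, stood at 54.8, 59.5 and 74.5 CPM in wild-type mock and 142, 147 and 97.6 in cdk8 mock. LGO, an inhibitor of cell cycle kinases, stood at 9.43, 11.6 and 12.9 CPM in wild-type ABA against 6.42, 6.99 and 7.45 in cdk8 ABA, which did not overlap. AGO9, an Argonaute protein, rested on a single library, since it stood at 14.8, 1.48 and 1.4 CPM in cdk8 mock and between 1.12 and 3.09 in all other groups.

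The last 13 genes of the remainder, 12 of them named after their values were seen, had differences of responses from -1.44 to -1.01. AT1G63560, AT2G14247, AT3G12900, PCR1, GLR2.2, AT1G58320, PER4 and AT5G42830 were at least 1 higher in cdk8 after mock, by 1.04 to 2.38. LEA3, AT1G24147, AT5G24200, scpl10 and AT2G44290 were not, at 0.20 to 0.89 after mock and -0.92 to -0.33 after ABA. After ABA, AT1G58320 (1.3) and AT1G26390 (1.01) were the 2 of the 51 at least 1 higher in cdk8.

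**Figure D5:**
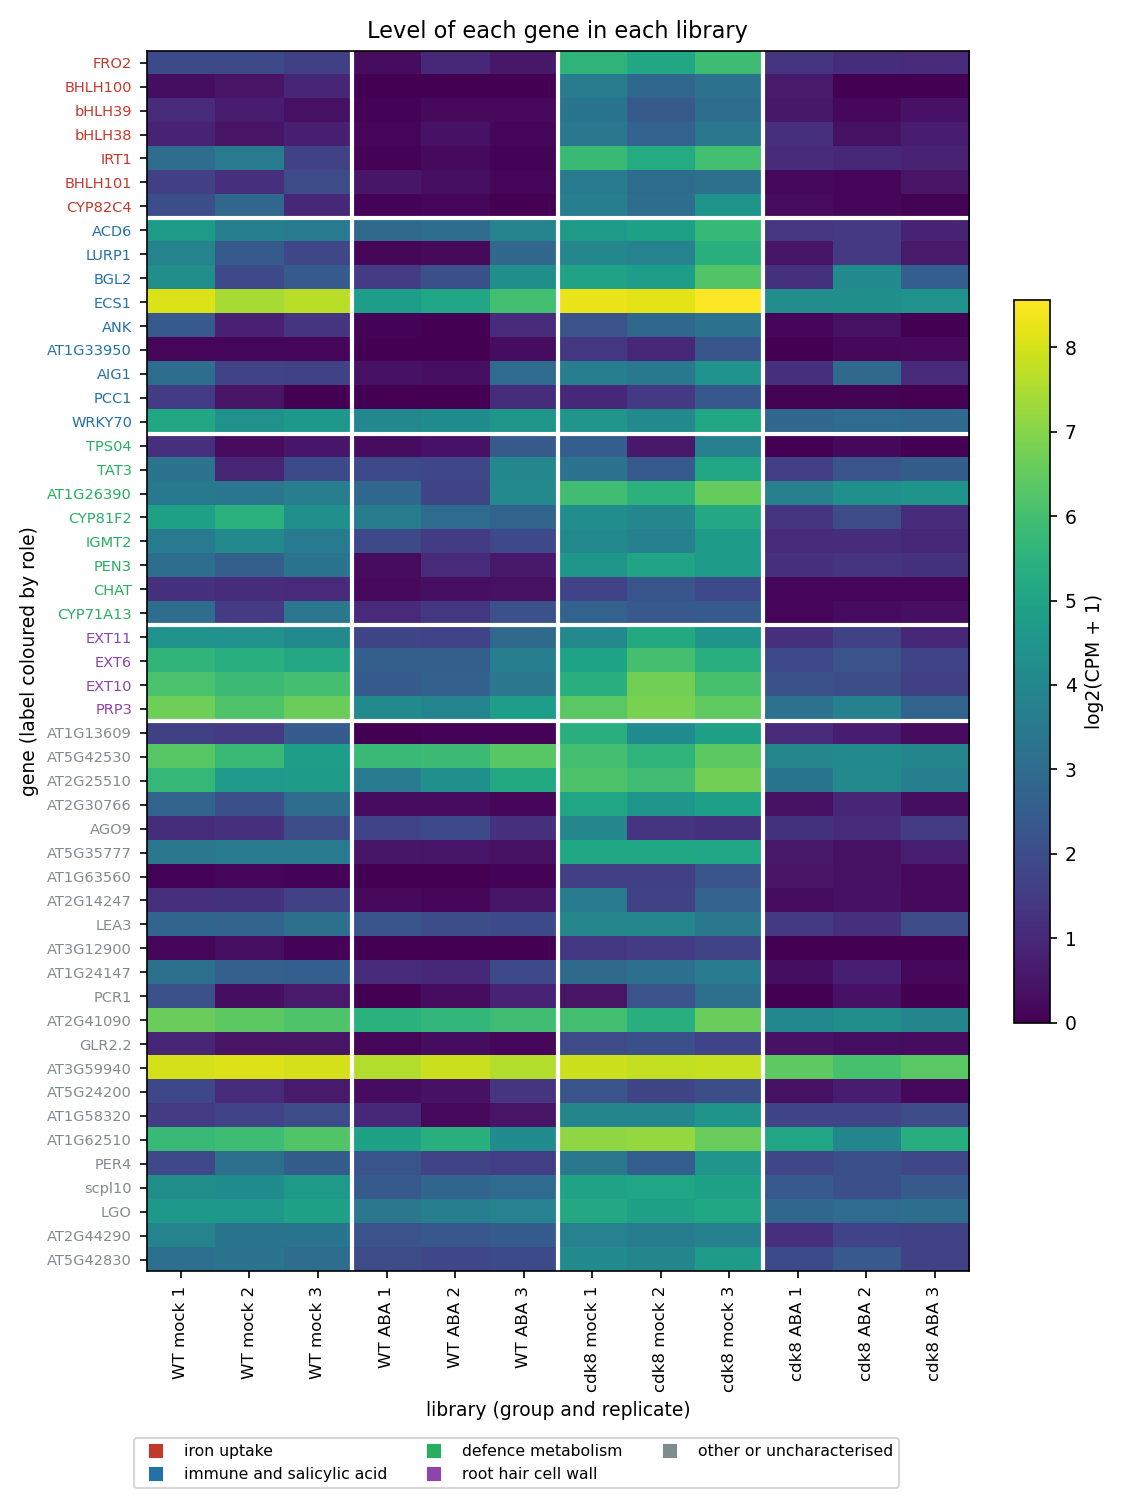
Level of each of the 51 genes (rows, label coloured by role, ordered by difference of responses within a role) in each of the 12 libraries (columns), as log2(CPM plus 1) on the colour scale. Iron uptake rows are brightest in cdk8 mock, and immune rows are brighter in wild-type ABA replicate 3 than in replicates 1 and 2.

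The limits fell between genes with close values on the cdk8 response and on the difference of responses. On the cdk8 response, AGO9 (-1.5) and AT3G59940 (-1.53) lay just inside, and PGL5 (-1.45) and KAT1 (-1.4) just outside. On the difference of responses, AT2G44290 and CYP71A13 lay just inside at -1.01, and BAS1 and AT3G26610 just outside, at -1 after rounding. On the wild-type response, the nearest genes were TPS04 (0.73) and TAT3 (0.57) inside and PR1 (2.34) outside, none close to the limit.

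Leaving out each library in turn kept 18 of the 51 in all 12 runs, among them all 7 iron genes, ACD6, ECS1, ANK and TPS04. Without both libraries that stand apart 40 of the 51 stayed and 56 genes met the rule. Among the 11 that left, beside those named above, were LGO (-1.03 with all libraries and -0.93 without both), AT5G24200 (-1.09 and -0.84) and scpl10 (-1.05 and -0.82). AGO9 and AT3G59940 also left, with differences of -1.7 and -1.09 that still met that limit. The iron genes also covaried less with each other than the immune genes did, with a median r of 0.39 over 21 pairs (range -0.63 to 0.94). In IRT1, bHLH39, BHLH100 and CYP82C4 every wild-type ABA library was at or under the floor of 3 counts. The part of counting error in this r was not tested. The 51 genes had a median exon length of 1249 bases, beside 1525 over all genes tested.

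Before the starts of 50 chosen genes found in the reference annotation, 5 motifs were searched in 250 bases on both strands. ACGTG was found in 18 of 50 (36.0%), beside 24.3% of 21034 windows of genes tested. CACGTG, which contains ACGTG, was in 4 (8.0%), beside 7.51%. TTGAC was in 22 (44.0%), beside 45.3%, and the drought-response core CCGAC in 3 (6.0%), beside 12.8%. The evening element AAAATATCT was in 2 (4.0%), beside 2.46%. These matches are letters in a window, given as a description.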

How the data were processed

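RNA was sequenced in 12 libraries, 3 per group. In the deposited table, each value is a fragment count for 1 gene, made by the authors with featureCounts v1.4.6 per the file headers, and FastQC, TopHat2 and the TAIR10 genome are named in the submitters' processing notes. Per the file headers no strand option was given, so overlapping genes on opposite strands are uncertain. Genes were filtered with filterByExpr and scaled by TMM, and edgeR 4.0.16 (R 4.3.3, limma 3.58.1) fitted 4 group means over all 12 libraries for 5 comparisons, adjusted by Benjamini-Hochberg over 21151 genes. Of the 33602 genes, 32835 were matched by locus ID to the TAIR10.1 annotation. Standard errors (SE) were derived from each log2 change and its quasi-likelihood F value, as the ratio of the change to the root of F. Floors of 3 counts cover counting error only.

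The members, the 27 gene lists, the naming rule and the tests were chosen with earlier results of these data known. The rule named the 12 genes lowest in difference of responses, the 12 lowest in cdk8 response and the 12 highest in mean CPM, each among those with at least 5 CPM in a group, then listed genes, families and genes at the limits. Alternatives were other scalings, filters, pseudocounts and medians, DESeq2 1.42.0, limma-voom and each library left out. Genes missing from the 250-base windows were not analysed for motifs.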

Additional observations from a re-analysis of the deposited data

Results flagged for a closer look

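A total of 7 genes outside the set, on the lists that hold at least 1 of the 51, differed between the genotypes in their response to ABA by edgeR's quasi-likelihood test (cdk8 minus wild type, log2, 3 libraries per group). These lists held 10 iron, 18 jasmonate, 16 pattern-triggered, 23 root hair, 15 root organ and 16 salicylic acid genes tested and not chosen. Some genes were on more than 1 list. Over all genes tested, 2.37% were called above 0 and 2.85% below 0, and no excess over these shares is claimed. LOX2 (-1.19, SE 0.20, adjusted p = 0.00599), WRKY22 (1.35, SE 0.14, adjusted p = 0.00064) and FMO1 (-3.58, SE 0.73, adjusted p = 0.0134) were called under all 21 settings. TPS10 (-0.60, SE 0.13, adjusted p = 0.0192) was called under 18 of 21, OPR3 (0.64, SE 0.16, adjusted p = 0.0333) under 14, WRKY40 (1.28, SE 0.32, adjusted p = 0.0343) under 13 and EXT13 (-2.27, SE 0.59, adjusted p = 0.0398) under 11. The symbol TPS10 was matched to AT1G60140, which may not be the jasmonate gene meant by its list. WRKY22 and WRKY40, transcription factors induced early by microbial patterns, thus moved opposite to the immune genes of the set, at 16.6 CPM in wild-type ABA and 27.1 in cdk8 ABA for WRKY22. FMO1, needed for systemic resistance, stood at 1.27 CPM in wild-type ABA and 0.280 in cdk8 ABA, and without both ABA libraries that stand apart its difference was -2.34 (adjusted p = 0.0194).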

How the results depend on the processing

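The rule gave 51 genes, 80 with a pseudocount of 0.5 CPM, 16 with 5 CPM and 43 to 72 with 1 library left out, the lowest without wild-type ABA replicate 3, when 15 of the 51 were lost. Group medians gave 49 genes, 37 of them shared. Calls among the 51 for the difference of responses numbered 17, 7 at adjusted p under 0.01, and 9 to 20 with 1 library left out, the lowest without cdk8 ABA replicate 1. With all libraries, 2.85% of all genes tested were called below 0 at adjusted p under 0.05, and shares for the other settings are not given here. The choice used these contrasts, so nothing is read from these counts or from those with a replicate block. The header numbers of the replicates did not pair the libraries, with correlations of deviations from -0.294 to 0.157, and with a replicate block the calls were 33 and 49 lower after ABA in wild type and cdk8, 23 higher after mock, 18 lower after ABA and 15 for the difference. Of 765 member values recomputed under alternatives, 694 kept direction and side, 41 lost and 16 gained a call, and 14 changed sign. With 1 library left out, the fitted difference of responses changed sign for 9 genes. The ranges were -3.01 to 1.41 for AIG1, -4.76 to 0.37 for ANK, -2.15 to 0.37 for AT1G63560, -4.12 to 0.72 for LURP1 and -7.29 to 0.78 for PCC1, each highest without wild-type ABA replicate 3. They were -0.17 to 0.84 for AT1G13609, -0.87 to 0.37 for AT1G58320, -4.12 to 1.42 for BHLH100 and -0.13 to 1.09 for IRT1. Without both ABA libraries that stand apart it changed sign for AIG1 (0.01), AT1G63560 (0.29) and PCC1 (0.44). The causes were not tested. Levels under 0.17 CPM lie at or below 3 counts in the shallowest library.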
